A study of Mus musculus with 217 samples.

Results

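The genes described here encode the nuclear subunits of respiratory complex I (NADH:ubiquinone oxidoreductase), the entry point of electrons into the mitochondrial respiratory chain. They were chosen by symbol: rows named Ndufa, Ndufb, Ndufc, Ndufs or Ndufv followed by a number, and Ndufab1, without assembly factors and without pseudogene rows. The rule found 37 of the 53619 gene rows. Of these, 7 encode core subunits, which carry the flavin and iron-sulfur clusters of the enzyme. Another 9 encode accessory subunits of the matrix arm and 20 accessory subunits of the membrane arm. The remaining gene, Ndufa4, keeps a complex I name but encodes a subunit of cytochrome c oxidase, complex IV, and is counted with the members throughout. All 37 passed the filter on low counts in granulosa cells and in oocytes.

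The study measured RNA by Smart-seq2, which amplifies polyadenylated RNA along its length from single cells or small pools, in mouse granulosa cells and in single metaphase II oocytes. Mice of mixed C57BL6/129 background were wild type or labelled Tet2 knockout, Tet2 being an enzyme that oxidises 5-methylcytosine in DNA. Young mice were 2 months old. Middle-aged mice were 6 and old mice 10 months old, and both drank water with resveratrol at 30 mg per L from the age of 2 months, or with its solvent DMSO alone. Granulosa cells, the follicle cells that surround and feed the oocyte, came as 3 pools in each of 6 groups: young wild type, young knockout-labelled, and old wild-type and old knockout-labelled mice with or without resveratrol. Wild-type mice gave 18 young oocytes, 20 middle-aged oocytes without and 14 with resveratrol, and 20 old oocytes without and 14 with it. Knockout mice gave 15, 20, 20, 15 and 15 oocytes in the same order. A separate table held oocytes of C57BL6 mice: 11 middle-aged control, 6 old control and 10 old resveratrol. All females were primed with gonadotropin, and no mouse is named for any library. P-values in granulosa cells therefore rest only on how far pools of a group differ, and that spread can be technical. Those over group sums, for oocytes and between cell types, rest on how far the sums depart from the fitted model.

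Libraries held 470647 to 20537935 counts in granulosa cells, 3386039 to 8775154 in oocytes and 3470831 to 11358927 in C57BL6 oocytes. All 3 young wild-type pools and 2 of 3 young knockout-labelled pools held under 1000000 counts, so age and depth cannot be told apart in wild-type granulosa cells. Tet2 itself was at a median of 0.692 to 1.38 counts per 1000000 counts of the library (CPM) in the 5 knockout oocyte groups and 1.75 to 3.22 in the 5 wild-type groups. In granulosa pools it was not lower under the knockout label, with group medians of 11.6 to 15.9 CPM against 7.99 to 13.5, so these pools are called knockout-labelled. The young wild-type oocytes carry a knockout tag that contradicts their titles, and the titles were followed. Granulosa pools had the granulosa marker Inha at 658 to 5007 CPM, and the 10 granulosa markers summed to 1267 to 5641 CPM. Not every marker was higher in the pools: Cyp19a1 had group medians of 2.67 to 9.73 CPM there and 29.3 to 65.0 in oocytes of either set. The 11 oocyte markers summed to 87.1 to 250 CPM in young wild-type pools and 1.45 to 6.34 in the 12 old pools. In young knockout-labelled pools their sums were 1.03 to 129 CPM, with a median of 107.

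Complex I passes electrons from NADH to ubiquinone and pumps protons across the inner mitochondrial membrane. It is built from core subunits found also in bacteria, of which the nuclear genome encodes one part and mitochondrial DNA the other, and from accessory subunits that arose later and stabilise both arms. Oocytes depend on mitochondrial respiration for their ATP, while granulosa cells are highly glycolytic and supply the oocyte with pyruvate.

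Promoter sequences were taken from RefSeq (GRCm38.p6, the assembly also called mm10), where 33 of the 37 members had an entry. The 120 bases before the transcription start are shown for 5 members. Ndufa11 passed in granulosa cells in 3 comparisons. Ndufa10 and Ndufab1 were higher in oocytes. Ndufb7 and Ndufc1 were among the members furthest below granulosa cells in oocytes. In granulosa cells Ndufa3 passed in more comparisons than Ndufa11, and Ndufa4 and Ndufb6 in as many, but their promoters are not printed. Capitals mark a match to the motif of NRF1 or of ETS factors, both regulators of nuclear genes for respiration. The start used is that of RefSeq. In GENCODE vM21 the genes Ndufa10, Ndufab1, Ndufb7 and Ndufc1 begin within the printed bases, and Ndufb7 begins before its marked ETS match.
Ndufa11 (chr17:56717642-56717761, plus strand): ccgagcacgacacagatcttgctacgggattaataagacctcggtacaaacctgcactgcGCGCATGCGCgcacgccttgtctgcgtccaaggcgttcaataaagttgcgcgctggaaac
Ndufa10 (chr1:92473759-92473878, minus strand): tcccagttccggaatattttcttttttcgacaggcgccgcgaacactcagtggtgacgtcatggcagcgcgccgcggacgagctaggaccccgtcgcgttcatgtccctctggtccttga
Ndufab1 (chr7:122101849-122101968, minus strand): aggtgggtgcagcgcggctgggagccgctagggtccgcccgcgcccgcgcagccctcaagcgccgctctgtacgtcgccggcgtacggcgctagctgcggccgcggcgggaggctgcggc
Ndufb7 (chr8:83566638-83566757, plus strand): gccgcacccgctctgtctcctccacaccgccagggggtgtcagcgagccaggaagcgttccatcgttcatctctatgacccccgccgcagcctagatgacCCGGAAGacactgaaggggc
Ndufc1 (chr3:51408956-51409075, minus strand): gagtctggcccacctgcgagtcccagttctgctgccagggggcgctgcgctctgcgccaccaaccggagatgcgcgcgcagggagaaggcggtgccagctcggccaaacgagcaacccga
The search covered 250 bases before to 50 after the start, on both strands, with no overlap between the 3 motifs. The NRF1 motif (GCGC on both sides of A and any base) was in 7 of 33 member promoters (21.2%) and in 4.78% of all 27025 promoters. CCGGAAG, the ETS motif, was in 4 of 33 (12.1%) and in 9.12% of all. AAGATGGC, the YY1 motif, was in 7 of 33 (21.2%) and in 2.88% of all. In all 7 members the YY1 motif lay 22 to 38 bases after the start, and Ndufs6 held an NRF1 match as well. Of the members with an entry, 16 held none of the 3 motifs. These shares describe letters in a window, and no binding was measured.

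The members spanned a narrower range of levels in granulosa cells than in oocytes. Levels between genes are compared as CPM per kb of the principal transcript, on library totals. The highest median over the 18 granulosa pools was that of Ndufa4, at 606 CPM per kb, followed by Ndufa2 at 450 and Ndufa7 at 448. The lowest were Ndufs1, the largest core subunit, at 30.2, Ndufv1, the flavoprotein core subunit that binds NADH, at 66.9, and Ndufb4, a membrane arm subunit, at 73.6. Highest and lowest differed 20.1-fold. In the 171 oocytes the highest were Ndufa4 at 233, Ndufa10 at 131 and Ndufab1, the mitochondrial acyl carrier protein, at 98.3 CPM per kb. Ndufb7 at 0.372, Ndufb10 at 0.946 and Ndufv1 at 1.08 were the lowest. Highest and lowest differed 628-fold there and 250-fold in the 27 C57BL6 oocytes. The 628-fold ratio rests on a median of 1 count of Ndufb7 per oocyte, near the counting floor. By group means the ratio was 135 to 603 in the groups of these 171 oocytes, with Ndufb7, Ndufv1 or Ndufa12 lowest. In granulosa groups it was 11.8 to 32.5.

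The order of the members was much the same in the 2 sets of oocytes and differed from that of granulosa cells. Spearman's rho of the median levels was 0.98 between oocytes of the mixed background and of C57BL6, and 0.33 between oocytes and granulosa cells. Both are given as descriptions over the same 37 genes, which share their lengths and annotation. Ndufa10, Ndufab1 and Ndufa4 together made up 53.9% to 78.5% of all member counts in every oocyte of either set, and 8.94% to 11.3% in every granulosa pool. Ndufa10 alone made up a median of 33.6% in oocytes and 2.77% in granulosa cells. At the other end, Ndufb7 had counts in 124 of 171 oocytes, Ndufc1 in 144, Ndufb10 in 149 and Ndufa7 in 151, and each had counts in all 18 granulosa pools.

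**Figure D1:**
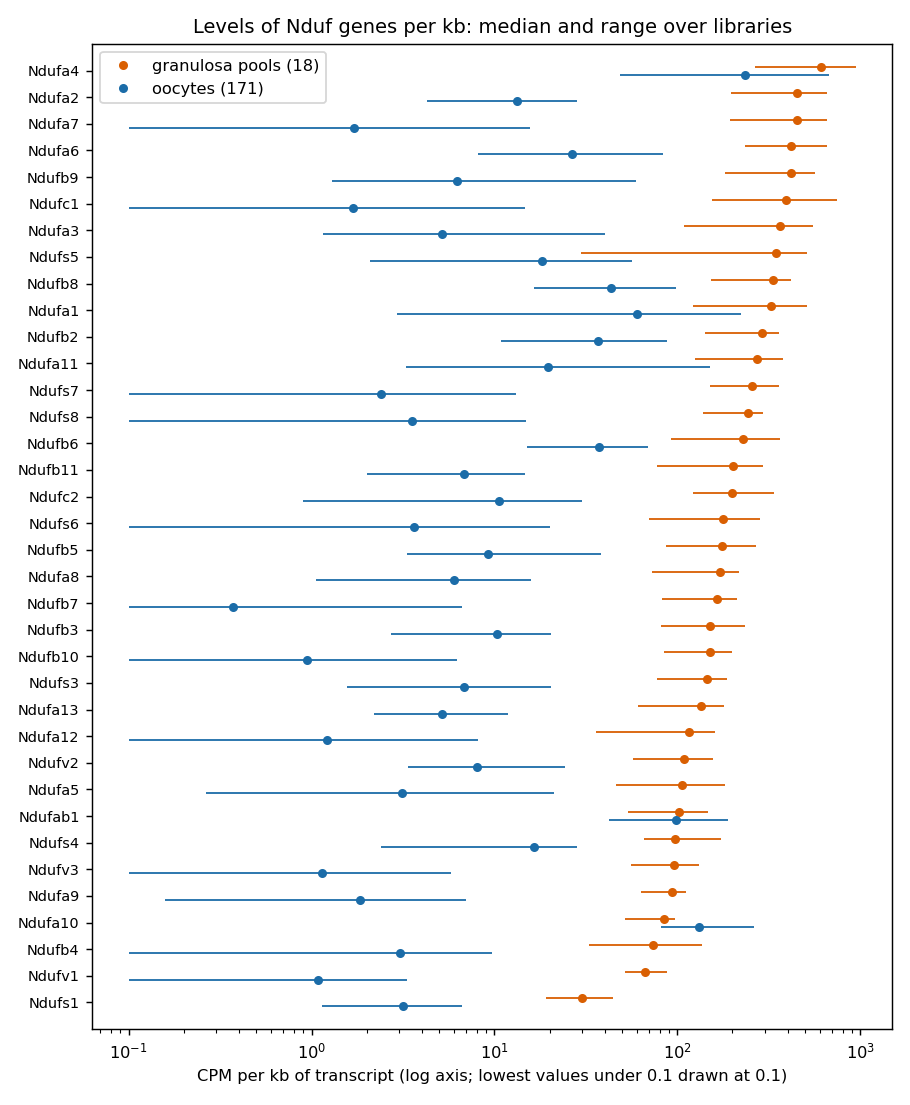
CPM per kb of transcript (log axis) of 36 members, with the median as a point and the range over 18 granulosa pools or 171 oocytes as a line. Granulosa medians run from 30.2 to 606, while oocyte medians run from 0.372 to 233.

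The core subunits were uneven in oocytes too. Ndufv2, an iron-sulfur subunit, had the highest median at 8.02 CPM per kb, ahead of Ndufs3 at 6.84 and Ndufs8 at 3.55. Ndufs1 stood at 3.18, Ndufs7 at 2.39 and Ndufv1 at 1.08. The ranges of neighbours in this order overlapped. In granulosa cells the order was Ndufs7 (255), Ndufs8 (243), Ndufs3 (146), Ndufv2 (109), Ndufv1 (66.9) and Ndufs1 (30.2).

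Between cell types, 35 of 37 members were lower in oocytes and 2 were higher. This comparison used 6 matched groups, summed within each cell type, on CPM scaled by TMM factors. Cell number, collection and depth differ between the 2 kinds of library too, and cannot be told apart from cell type here. Over all 24670 genes tested, 44.4% were lower and 42.8% higher (edgeR, adjusted p under 0.05). The median log2 difference of the members was -3.79 against -0.13 for all genes. All 7 core subunits were lower, from -6.05 (Ndufs7) to -2.37 (Ndufs1). The 9 matrix arm accessory subunits were lower too, with a median of -4.45. Of the membrane arm subunits 18 were lower and 2 higher, with a median of -3.33.

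The members most below granulosa cells were accessory subunits. Over all 37 members Spearman's rho between this log2 difference and transcript length was 0.05. Ndufa7 was at 1.05 ± 0.194 CPM in oocyte sums and 172 ± 70.4 in granulosa sums (SD, n = 6 each; log2 -7.25, SE 0.31, edgeR adjusted p = 6.21e-10). Ndufb7 was at 0.507 ± 0.210 and 71.0 ± 25.2 CPM (log2 -7.10, SE 0.33, edgeR adjusted p = 9.81e-10). For Ndufc1 the sums held 0.823 ± 0.364 and 94.3 ± 41.8 CPM (log2 -6.83, SE 0.32, edgeR adjusted p = 1.01e-09). In none of these did the oocyte and granulosa sums overlap, with highest oocyte sums of 1.34, 0.759 and 1.36 CPM. Ndufb10 was at 0.920 ± 0.216 and 79.4 ± 23.7 CPM (log2 -6.40, SE 0.22, edgeR adjusted p = 1.84e-10).

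Ndufa10 and Ndufab1 went the other way. Ndufa10, a membrane arm subunit, was at 343 ± 36.6 CPM in oocyte sums and 127 ± 20.6 in granulosa sums (log2 1.44, SE 0.17, edgeR adjusted p = 4.93e-06). Its lowest oocyte sum, 288, lay above its highest granulosa sum, 147. Ndufab1 was at 185 ± 24.1 and 106 ± 30.8 CPM (log2 0.84, SE 0.18, edgeR adjusted p = 0.000802). With library totals in place of TMM factors its difference was 0.03 and did not pass, and Ndufa10 was then the only member higher. The row of the pseudogene Ndufab1-ps is separate, and the sources used here do not say how reads shared by both were assigned.

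Among the other lists, 35 of 38 genes of complexes II to V were lower in oocytes and 2 higher, with a median of -3.72. Of 14 assembly factors tested, 9 were lower and 2 higher: Ndufaf4 (log2 3.23, SE 0.18) and Ndufaf2 (2.21, SE 0.20). The 11 regulators of mitochondrial gene expression divided differently, with 8 higher and 3 lower. Ppargc1b, a coactivator of mitochondrial biogenesis, was higher by 6.41 (SE 0.40), and Nrf1 by 2.38 (SE 0.20). Gabpa, the ETS-domain subunit of nuclear respiratory factor 2, was lower by -7.35 (SE 0.21). Short genes in general were lower in oocytes: the median of all genes with transcripts under 750 bp was -3.27, and that of the 17 members of this length -3.43. Between 750 and 1499 bp the medians were -1.42 for all genes and -4.01 for 13 members, and from 1500 to 2999 bp -0.30 and -2.80 (7 members).

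All members summed gave 3560 to 8490 CPM in granulosa pools and 510 to 1302 in oocytes. Young wild-type pools held 3560, 4096 and 3582 CPM, and young knockout-labelled pools 4961, 4461 and 3777. Old wild-type controls held 5034, 5172 and 5984, and old wild-type pools with resveratrol 7781, 6664 and 6805. Old knockout-labelled pools held 7081, 6473 and 6583 without and 8490, 7177 and 7116 with resveratrol. The 3 old wild-type controls lay below all other old pools. In these pools fewer cells of a type and less RNA per cell cannot be told apart.

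**Figure D2:**
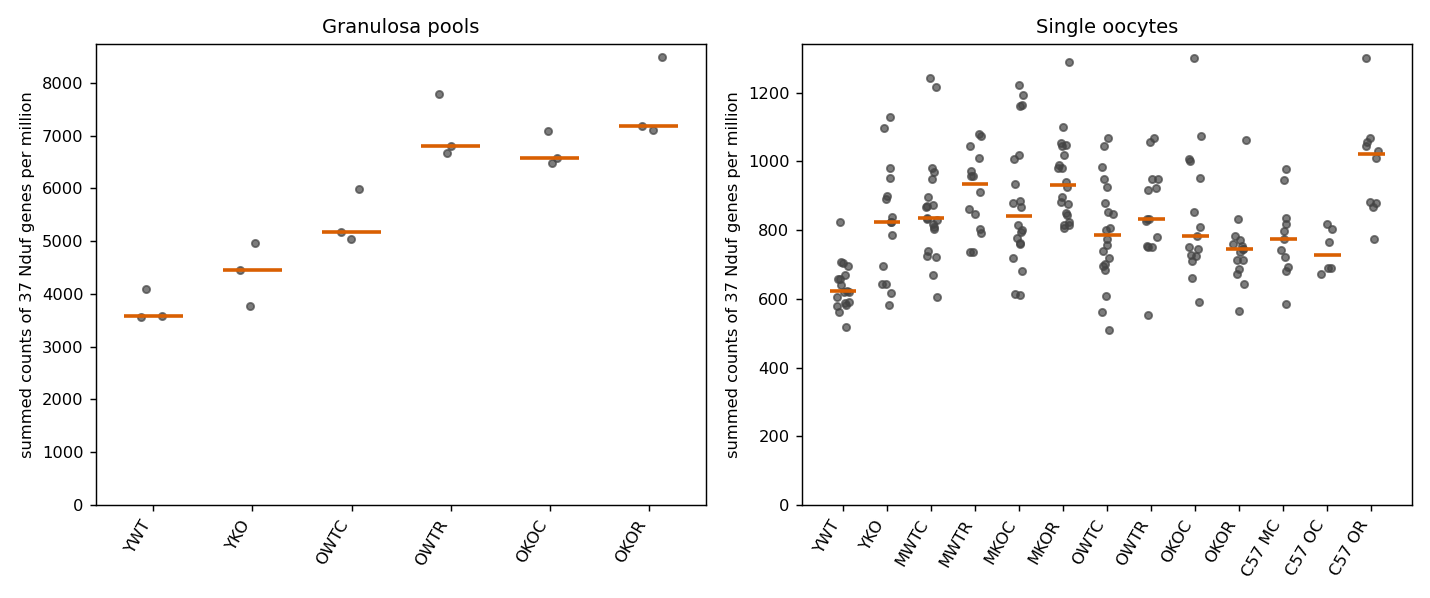
Summed CPM of the 37 members in each granulosa pool (left) and each oocyte (right), with the group median as a line; Y, M and O stand for young, middle-aged and old, WT and KO for genotype label, and final C and R for control and resveratrol, and C57 marks the C57BL6 oocytes. Young wild-type libraries are lowest by median in both cell types.

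The first granulosa comparison asked how members differed with age in wild-type mice. Old pools were higher for 3 of 37 members (edgeR, adjusted p under 0.05) and lower for 0, where 0.843% of all 17558 genes were higher and 0.683% lower. The median log2 difference was 0.50 over the members and 0.17 over all genes. For transcripts under 750 bp it was 0.52 over 17 members and 0.54 over all genes of that length. From 750 to 1499 bp the members stood at 0.57 and all genes at 0.38, and from 1500 to 2999 bp at 0.23 and 0.13. At an unadjusted p under 0.05, 20 members were higher and 0 lower, and DESeq2 called 3 higher. Shares of all genes at an unadjusted p or by DESeq2 are not given, here or in later comparisons. For 26 members every old pool lay above every young pool, as it did for 23.8% of all genes, and for 0 members below, against 8.01%. The 17 macrophage and leukocyte markers summed to 81.3 to 108 CPM in young and 140 to 192 in old wild-type control pools. For the 5 erythroid markers the sums were 2.12 to 542 and 271 to 4212 CPM. The part of these marker differences in the member values was not tested.

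Ndufs5, a membrane arm subunit with paired cysteine motifs, was at 15.2, 52.6 and 49.2 CPM in young and 110, 121 and 176 in old wild-type pools (log2 1.84, SE 0.34, edgeR adjusted p = 0.00601). Its groups lay far apart, and it passed in all 14 alternatives tried, at log2 1.32 to 2.09. A fit without pools under 1000000 counts was not among the 14, since it would leave no young wild-type pool. The alternatives therefore do not separate age from depth. Ndufa12, a matrix arm subunit that attaches late in assembly, was at 45.6, 62.8 and 37.9 against 92.7, 107 and 125 CPM (log2 1.16, SE 0.25, edgeR adjusted p = 0.0186). Ndufa3, a small membrane arm subunit, was at 54.7, 89.1 and 77.6 against 139, 133 and 154 CPM (log2 0.96, SE 0.23, edgeR adjusted p = 0.0365). Neither gene's groups overlapped, but Ndufa3 passed in only 4 of the 14 alternatives. Leaving out young replicate 1 or 3, or old replicate 2 or 3, left 1 of the 3 calls.

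Under the knockout label, 23 of 37 members were higher in old than in young pools and 0 lower, where 4.09% of all genes were higher and 1.08% lower. The median was 0.77 over the members and 0.10 over all genes. By role, 15 of 20 membrane arm and 7 of 9 matrix arm accessory subunits rose, as did Ndufa4. Of the 7 core subunits 0 passed, with a median of 0.33. Role was not separated from transcript length, which is taken up below. Among core subunits Ndufs1 has 2590 bp, Ndufv2 1697 and Ndufv1 1661, while Ndufs3 has 1046, Ndufs8 780 and Ndufs7 758. DESeq2 called 21 higher. The groups did not overlap for 29 members, all higher in old pools, and for 15.4% of all genes in this direction and 3.76% in the other. Macrophage and leukocyte markers summed to 45.7 to 976 CPM in young and 1424 to 1834 in old knockout-labelled control pools. Erythroid markers summed to 262 to 479 and 1609 to 2156 CPM. The part of these marker differences in the member values was not tested.

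Ndufa3 had the lowest p, at 145, 78.7 and 108 CPM in young and 273, 218 and 228 in old knockout-labelled pools (log2 1.15, SE 0.21, edgeR adjusted p = 0.00276). Ndufa1, a small membrane arm subunit encoded on the X chromosome, was at 127, 54.0 and 50.6 against 209, 176 and 157 CPM (log2 1.28, SE 0.25, edgeR adjusted p = 0.00458). Young replicate 1 was the highest young pool for both genes and held 749172 counts. Ndufa4 was at 146, 173 and 195 against 414, 374 and 311 CPM (2.14-fold, log2 SE 0.22, edgeR adjusted p = 0.00464). Ndufb3 was at 64.8, 72.1 and 84.7 against 169, 148 and 130 CPM (log2 1.02, SE 0.20, edgeR adjusted p = 0.00495). For Ndufa5, a matrix arm subunit, the values were 53.7, 57.6 and 56.0 against 135, 127 and 102 CPM (2.16-fold, log2 SE 0.23, edgeR adjusted p = 0.00586). None of the 5 overlapped between ages. The count of 23 fell to 14 without young replicate 2, 9 without young replicate 3, and 7 or 12 without old replicate 1 or 2. It was 12 with RLE factors, 8 at one depth, 15 without the pools under 1000000 counts, which leaves 1 young pool, and 0 when only these 2 groups were fitted.

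The difference between the age effects of the 2 labels did not pass for any member (0 of 37; 0.0342% and 0.103% of all genes passed upward and downward). Unadjusted p was under 0.05 for 2 members, both higher, and DESeq2 called 0. Ndufa1 had the lowest p, with an age effect more positive by 1.13 under the knockout label (SE 0.36, edgeR adjusted p = 0.401). Ndufa4 followed at 0.87 (SE 0.31, edgeR adjusted p = 0.485). A difference between the age effects was therefore not shown for any member.

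Resveratrol in old wild-type mice was compared with the same control pools. Of the 37 members, 9 were higher with resveratrol and 0 lower, where 1.17% of all genes were higher and 0.456% lower. The median was 0.65 over the members and 0.01 over all genes. By role, 7 of 20 membrane arm and 1 of 9 matrix arm accessory subunits rose, with Ndufa4, and 0 of 7 core subunits. Here too role was not separated from transcript length. Without overlap between groups 35 members were higher and 1 was lower, where 17.6% of all genes were higher and 13% lower.

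Ndufb5, a membrane arm subunit, was at 137, 162 and 155 CPM in control and 277, 240 and 225 in resveratrol pools (log2 0.71, SE 0.18, edgeR adjusted p = 0.0440). Ndufb9, another membrane arm subunit, was at 208, 217 and 265 against 420, 369 and 375 CPM (log2 0.75, SE 0.19, edgeR adjusted p = 0.0440). Ndufb3 was at 90.8, 96.6 and 94.6 against 188, 149 and 144 CPM (log2 0.77, SE 0.19, edgeR adjusted p = 0.0440). In all 3 genes each resveratrol pool lay above each control pool. Ndufb6 was at 109, 114 and 130 against 222, 184 and 195 CPM (log2 0.77, SE 0.19, edgeR adjusted p = 0.0446). Ndufa11, whose promoter is printed above with its NRF1 motif, was at 84.2, 88.8 and 114 against 224, 156 and 168 CPM (log2 0.93, SE 0.24, edgeR adjusted p = 0.0447).

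These calls stood close to the threshold. Without any one of the 6 libraries compared, 0 members passed, and 0 passed with RLE factors or at one depth. The length correction described below also left 0, and is given as a description only. DESeq2 called 19, the fit without pools under 1000000 counts 19, and the fit of only these 2 groups 32, all higher. Ndufb6 shares 39.0% of its exonic length with Smim27 on the other strand, which has no row in the tables, and Ndufb5 shares 12.3% with Mrpl47. The sources used here do not say if the counting was stranded.

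Resveratrol in old knockout-labelled mice gave 0 passing members, against 0.0114% of all genes higher and 0.0171% lower. The count at an unadjusted p under 0.05 was 0, and DESeq2 called 0. The median was 0.18 over the members and 0.01 over all genes, with 35 of 37 above 0. The groups did not overlap for 1 member higher and 1 lower, against 4.98% and 5.31% of all genes. Ndufa6 was at 299, 255 and 264 CPM in control and 434, 287 and 296 in resveratrol pools (log2 0.31, SE 0.18, edgeR adjusted p = 1.00). The groups overlapped.

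The difference between the resveratrol effects of the 2 labels passed for 0 members, and for 0.0114% of all genes upward and 0.148% downward. Its median was -0.48 over the members and -0.03 over all genes, and 36 of 37 were below 0. At an unadjusted p under 0.05, 10 members were below and 1 above 0, and DESeq2 called 0. Ndufa4 was at -0.79 (SE 0.30, edgeR adjusted p = 0.471) and Ndufb2, a membrane arm subunit, at -0.73 (SE 0.30, edgeR adjusted p = 0.534). A smaller resveratrol effect under the knockout label was thus not shown for any single member.

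The label comparison among old controls used the same 6 control pools as the comparisons above. Knockout-labelled pools were higher for 7 of 37 members and lower for 0, where 2.83% of all genes were higher and 1.03% lower. The median was 0.57 over the members and 0.06 over all genes. The 7 were 5 membrane arm subunits, the matrix arm subunit Ndufa2 and Ndufa4. Every knockout-labelled pool lay above every wild-type pool for 33 members and below for 1, where 16.7% of all genes were higher and 11.1% lower without overlap.

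Ndufa4 was at 190, 201 and 233 CPM in wild-type and 414, 374 and 311 in knockout-labelled old controls (log2 0.82, SE 0.21, edgeR adjusted p = 0.0305). Ndufc1, a short membrane arm subunit, was at 84.8, 102 and 97.8 against 203, 159 and 144 CPM (log2 0.83, SE 0.22, edgeR adjusted p = 0.0310). Ndufa11 was at 84.2, 88.8 and 114 against 169, 165 and 198 CPM (log2 0.89, SE 0.23, edgeR adjusted p = 0.0335). The groups lay apart in each gene. Ndufa3 was at 139, 133 and 154 against 273, 218 and 228 CPM (log2 0.75, SE 0.20, edgeR adjusted p = 0.0360). Ndufa2 was at 176, 172 and 200 against 328, 303 and 311 CPM (log2 0.78, SE 0.21, edgeR adjusted p = 0.0404). The count was 0 without any one of 5 of the 6 libraries and 2 without knockout-labelled replicate 3, and 2 with RLE factors.

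The 17 macrophage and leukocyte markers summed to 1424 to 1834 CPM in old knockout-labelled controls and 140 to 192 in old wild-type controls, with 17 and 11 markers at a median of 1 CPM or more. With resveratrol the sums were 433 to 1000 and 252 to 410. The 7 luteal markers summed to 6408 to 6886 and 11201 to 13715 CPM in the 2 control groups. The part of these differences in the member values was not tested. Between the 2 labels with resveratrol, where markers also differed, 0 members passed against 0.638% of all genes higher and 0.427% lower.

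In that comparison of old resveratrol pools the median of the members was 0.08, 0 were past an unadjusted p of 0.05 and DESeq2 called 0. Without overlap 0 members were higher and 1 was lower, against 10.5% and 8.65% of all genes. Ndufv1 was at 125, 147 and 139 CPM in wild-type and 119, 124 and 94.3 in knockout-labelled pools, without overlap (log2 -0.28, SE 0.19, edgeR adjusted p = 0.692). Ndufc1 was at 184, 144 and 158 against 263, 144 and 166 CPM (log2 0.24, SE 0.21, edgeR adjusted p = 0.813). Among young pools 0 members passed either, against 0.103% of all genes higher and 0.0114% lower, while 10 were higher at an unadjusted p under 0.05 and DESeq2 called 0. The young groups did not overlap for 6 members, all higher, against 5.47% of all genes higher and 3.58% lower. Ndufa8 was at 60.8, 93.1 and 68.1 CPM in wild-type and 146, 116 and 113 in knockout-labelled young pools (log2 0.76, SE 0.22, edgeR adjusted p = 0.200). Ndufs5 was at 15.2, 52.6 and 49.2 against 46.8, 105 and 91.6 CPM, with overlap (log2 1.14, SE 0.35, edgeR adjusted p = 0.241).

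**Figure D3:**
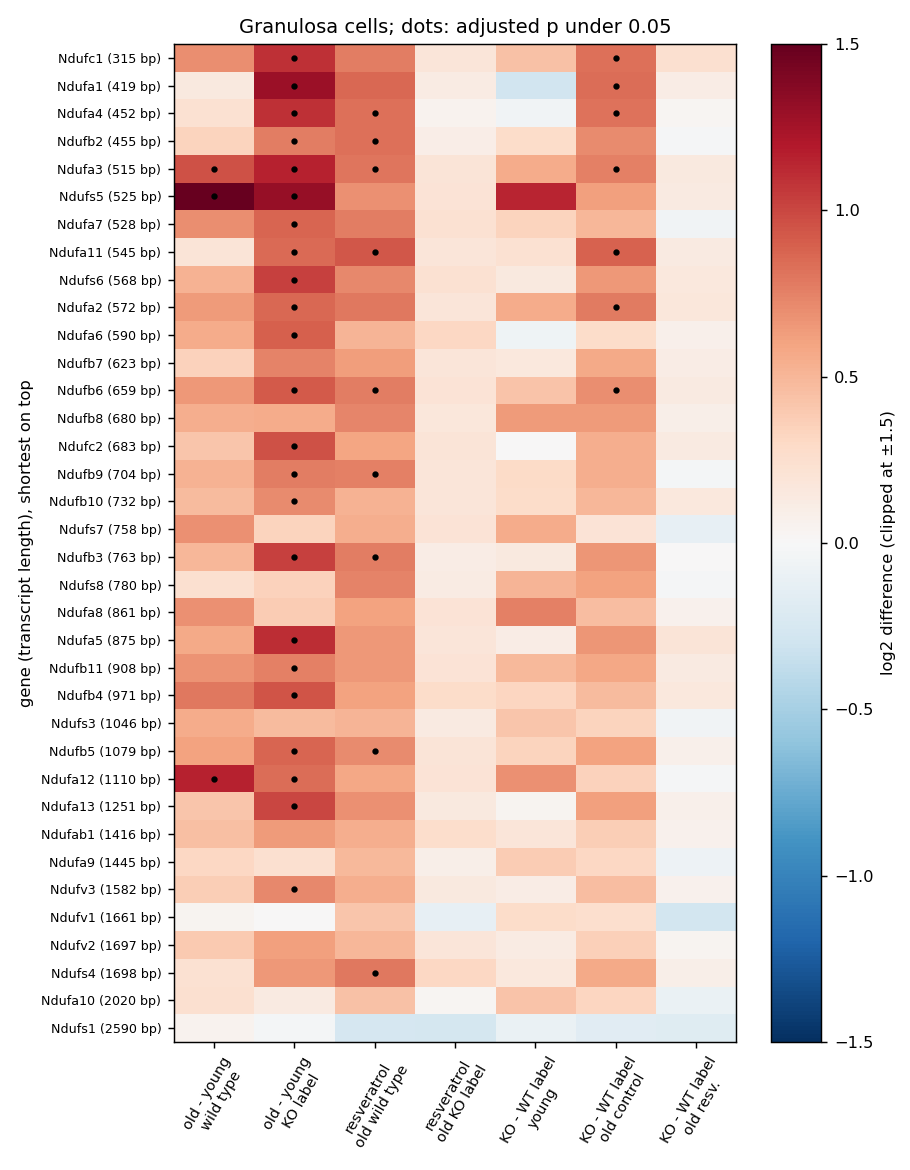
Log2 differences of 36 members (rows, shortest transcript on top) in the 7 granulosa comparisons (columns), with dots where the adjusted p was under 0.05. The dots number 3, 23, 9, 0, 0, 7 and 0 from left to right.

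In the 3 comparisons with the most passing members, the difference was larger in shorter transcripts. Over the 37 members Spearman's rho between the log2 difference and the length was -0.72 for resveratrol in wild type, -0.67 for age under the knockout label and -0.71 for the label among old controls, comparisons that share control pools. It was -0.33 for age in wild type and -0.38 for the label among old resveratrol pools. For resveratrol under the knockout label it was -0.08, and for the label among young pools -0.14. For resveratrol in wild type the median of all genes was 0.49 under 750 bp, 0.34 from 750 to 1499 bp, -0.05 from 1500 to 2999 bp and -0.13 above. The members stood at 0.77 (17 genes), 0.60 (13) and 0.44 (7) in the first 3 classes, above all genes of their class in each. For age under the knockout label the medians of all genes were 0.70, 0.32, 0.00 and -0.00, and those of the members 0.90, 0.76 and 0.13. Members did not stand above their class everywhere. For the label among young pools all genes were at 0.28, 0.32 and 0.09 in the first 3 classes and the members at 0.27, 0.38 and 0.12.

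Ndufs1, at 2590 bp the longest member, was at 107, 74.9 and 86.1 CPM in old wild-type controls and 68.6, 85.5 and 70.8 with resveratrol (log2 -0.25, SE 0.21, edgeR adjusted p = 0.592). These groups overlapped. Length did not order every gene: Ndufs4, a matrix arm subunit of 1698 bp, was among the 9 that passed, at 146, 152 and 141 against 318, 219 and 223 CPM. With a smooth function of length taken out of each library, the medians of the members became 0.17 and 0.35 for age under the 2 labels, 0.29 for resveratrol in wild type and 0.29 for the label among old controls. The passing members were then 2, 4, 0 and 0. Length was known for 37 of 37 members but for 77.3% of the genes tested, so this check is void by its coverage over all genes and is given as a description.

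**Figure D4:**
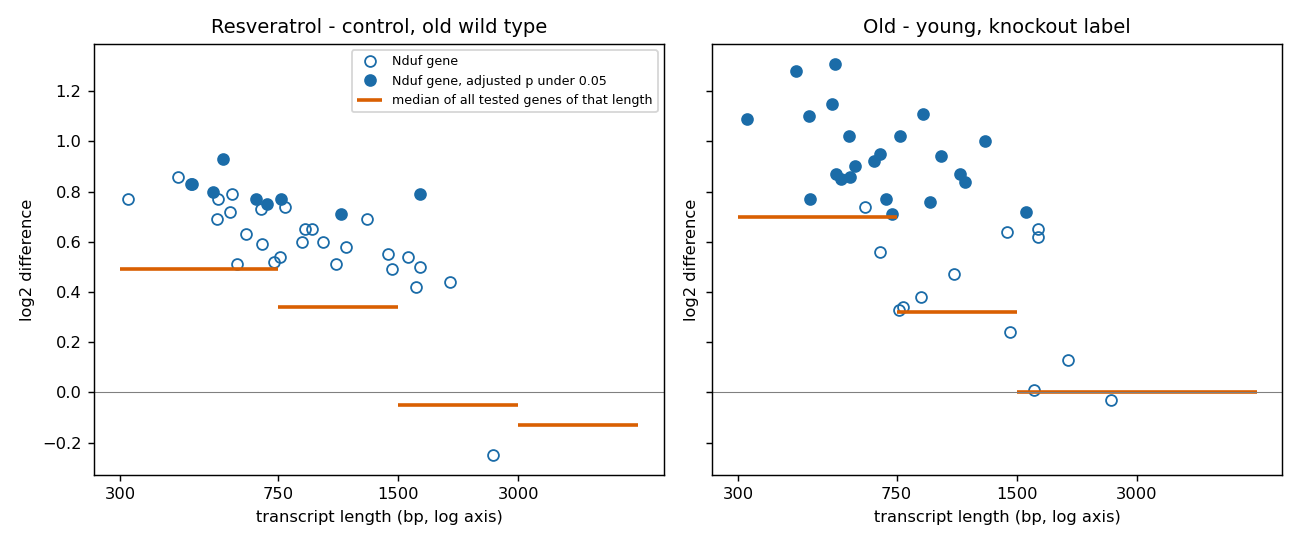
Log2 difference against transcript length (log axis) of 36 members for resveratrol in old wild-type (left) and age in knockout-labelled granulosa cells (right), filled where adjusted p was under 0.05; lines give the median of all tested genes of each length class. Short members lie high in both, and Ndufs1, the longest, lies at -0.25 and -0.03.

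Of 38 genes of complexes II to V, 20 rose with age under the knockout label (median 0.78), 12 with resveratrol in wild type (0.70) and 11 in the label comparison of old controls (0.59), with 0 falling. Cox5a, Cox6b1, Cox6c, Cox7a2 and Cox8a of complex IV and Atp5h, Atp5k and Atp5l of complex V rose in each of these 3 comparisons, which share pools. Of 14 assembly factors 0 rose in any of the 7 comparisons, and 1, Acad9, an acyl-CoA dehydrogenase that is also an assembly factor, was lower. It was lower by -1.30 with age under the knockout label (SE 0.26, edgeR adjusted p = 0.00522) and by -1.26 in the label comparison of old controls (SE 0.24, edgeR adjusted p = 0.00334), and by -1.40 among old resveratrol pools (SE 0.24, edgeR adjusted p = 0.00244). Of 9 regulators tested 0 passed in any granulosa comparison.

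Within granulosa groups most members deviated together. Over the 18 pools, after subtracting group means, the correlation of a member with the mean of the others was 0.5 or more for 28 members, described without a test. It was -0.57 for Ndufs1. Library size, preparation and length are shared by these values. The share of all genes with such a correlation is not given, so it is not shown to be particular to the members.

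In oocytes 0 of 37 members passed for knockout, resveratrol or any age difference, in the additive model of 10 group sums with 5 residual degrees of freedom. Among all 20806 genes, 0.0385% were higher and 0.101% lower in knockouts, and 0% passed with resveratrol. For age 0% passed between middle-aged and young, and 0.00481% were lower in old than in young and in old than in middle-aged oocytes. At an unadjusted p under 0.05 the members numbered 3 higher for knockout, 1 lower for resveratrol, 6 higher for middle against young age, 1 in each direction for old against young, and 2 higher and 7 lower for old against middle age. DESeq2 called 1 member higher for knockout, 1 higher and 3 lower for old against middle age, and 0 in the other comparisons.

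Ndufb5 had the lowest p for knockout, with sums of 6.77, 8.59, 5.73, 11.8 and 9.69 CPM in wild type (young, then middle-aged without and with resveratrol, then old without and with it) and 11.8, 11.8, 9.10, 15.7 and 14.7 in knockout. The knockout sum was the higher in each of the 5 strata (log2 0.59, SE 0.13, edgeR adjusted p = 0.0996). The same gene had the lowest p for resveratrol (log2 -0.34, SE 0.14, edgeR adjusted p = 1.000) and for old against young (log2 0.68, SE 0.19, edgeR adjusted p = 0.210). Ndufa7 had it for middle against young age, with sums of 0.735 and 0.838 CPM in young and 1.14 to 3.07 in middle-aged groups (log2 1.38, SE 0.41, edgeR adjusted p = 0.502). Ndufa11 had it for old against middle age, at 5.38 to 15 against 13.2 to 29.1 CPM (log2 -1.08, SE 0.24, edgeR adjusted p = 0.113).

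Young wild-type oocytes had the lowest group median of the summed members, 622 CPM (519 to 823), against 744 to 934 in the other 9 groups. Without Ndufa10, Ndufab1 and Ndufa4 the median was 201 against 259 to 362. The sum of the young wild-type group was the lowest of all 10 for 21 of the 37 members, and for 14.2% of the 20806 genes tested. Ndufs5 had a median of 2.15 CPM in these 18 oocytes (1.1 to 9.05) and of 8.35 to 12.4 in the other 9 groups. The ranges overlapped. Summed by the first number of their column names, which the sources used here do not explain, the young wild-type oocytes held 1.85 CPM of Ndufs5 (12 oocytes), 6.08 (3), 6.22 (2) and 2.63 (1).

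**Figure D5:**
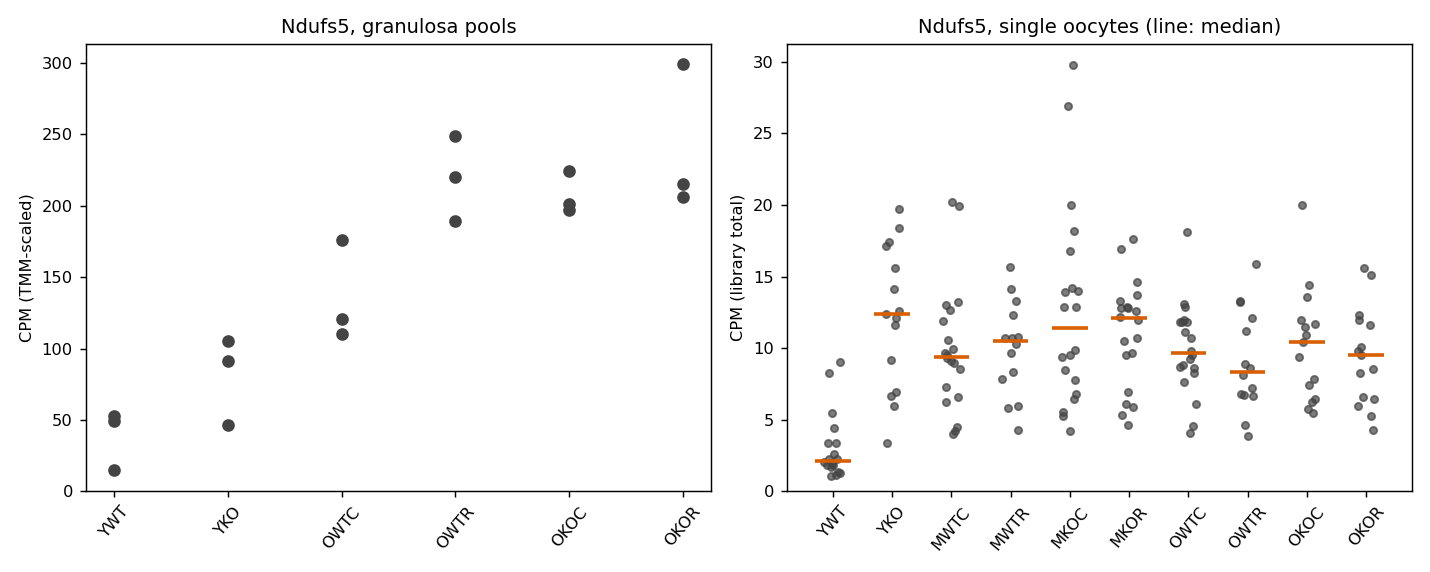
Ndufs5 in CPM in each granulosa pool (left, TMM-scaled) and each oocyte (right, on library totals, with the median as a line); group names as in the plot of summed counts. Young wild-type libraries are lowest by median in both, with an oocyte median of 2.15 against 8.35 to 12.4 in the other groups of mixed background.

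Oocytes summed by this number were compared in 13 ways within age, genotype and treatment. These p-values rest on how far sums of the same group differ, and no label says that the number marks a mouse. Of the members, 12 were higher in young knockout than in young wild-type oocytes and 0 lower (5.88% of 19706 genes higher, 4.12% lower). In old against young wild-type oocytes 8 were higher and 0 lower (6.62% and 4.88% of genes). Middle-aged against young wild-type oocytes gave 1 higher and 0 lower (1.87% and 1.09%), as did knockout among middle-aged controls (1.69% and 0.350%), and the other 9 comparisons gave 0. The first 2 comparisons share the young wild-type sums, which hold 12, 3, 2 and 1 oocytes. Ndufa12 was higher by log2 2.15 (SE 0.44, edgeR adjusted p = 0.00342) in the first and 2.03 (SE 0.44, edgeR adjusted p = 0.00466) in the second. Ndufs5 was higher by 1.65 (SE 0.36, edgeR adjusted p = 0.00533) and 1.31 (SE 0.36, edgeR adjusted p = 0.0215). Whether the contradictory genotype tag of the young wild-type oocytes bears on this was not tested.

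Middle-aged knockout control oocytes were highest for several of the members that are scarce in oocytes. Ndufb7 was at 1.23 CPM in their sum and 0.200 to 0.624 in the other 9. Ndufb10 was at 1.72 against 0.521 to 1.29, and Ndufa7 at 3.07 against 0.605 to 1.59 CPM. In these 20 oocytes the granulosa transcript Inha had a median of 16.8 CPM (0.163 to 120), against 0 to 0.270 in the other groups, and 5 of 10 granulosa markers had a median of 1 CPM or more, against 2 elsewhere. The part of granulosa RNA in these values was not tested.

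In C57BL6 oocytes there was 1 sum per group, so no test was made, and intervals cover counting error only. Old resveratrol oocytes were above old controls by a log2 ratio of at least 0.32 for 8 of the 13 members at 10 CPM or more and as far below for 0, where 11.6% of all such genes were above and 12.3% below. The median log2 ratio was 0.47 over these members and -0.02 over all such genes. Summed members ran from 774 to 1302 CPM with and 672 to 818 without resveratrol, and the ranges overlapped. Among these 13 members Ndufb3 was highest in ratio, with a median of 14.8 CPM (10.4 to 25.6, 10 oocytes) against 8.73 (6.87 to 10.5, 6 oocytes) and a log2 ratio of 0.90 (95% interval 0.72 to 1.08). Ndufa1 followed at 54.3 (26.7 to 83.0) against 25.9 CPM (13.1 to 45.9) and a ratio of 0.76 (0.66 to 0.85). Ndufs4, at 28.4 (17.5 to 36.7) against 26.2 CPM (24.8 to 42.7), and Ndufa10, at 256 (207 to 317) against 237 (159 to 281), were the lowest of the 13, with ratios of -0.09 (-0.20 to 0.02) and 0.18 (0.14 to 0.22). The name of 1 of the 10 columns could also be read as the title of an oocyte with contradictory treatment labels, and without that column 10 members were above.

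Old against middle-aged C57BL6 controls gave 3 members above and 3 below by that ratio among 10 at 10 CPM or more, where 29.5% of all such genes were above and 24.7% below. Ndufa1 was at a median of 25.9 CPM (13.1 to 45.9) in old and 8.86 (3.55 to 19.2) in middle-aged oocytes, a log2 ratio of 1.9 (1.73 to 2.07). Ndufa4 was at 113 (72.6 to 159) against 55.6 CPM (27.3 to 126), a ratio of 0.94 (0.88 to 1.01). Ndufb2 went the other way, at 14.7 (11.4 to 20.2) against 23.0 CPM (14.0 to 44.1) and -0.82 (-0.96 to -0.67), as did Ndufa10, at 237 (159 to 281) against 273 (216 to 523) and -0.43 (-0.46 to -0.39). All 4 overlapped between single oocytes of the 2 ages.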

How the data were processed

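RNA-seq libraries of granulosa pools and single oocytes were analysed from the whole-number read counts per gene that the authors deposited, not normalized. Per the submitters' processing notes the tools were HISAT2 2.1.0, DESeq2 and featureCounts, and the build was mm10. Groups follow the sample titles. The members, gene lists and tests were chosen with earlier results of these data known.

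Differences in counts were tested by edgeR 4.0.16 (R 4.3.3; quasi-likelihood test, TMM factors, filterByExpr with a minimum count of 10, Benjamini-Hochberg adjustment over all genes at 0.05). DESeq2 1.42.0 served as an alternative. Granulosa cells were fitted with 1 mean for each of 6 groups (12 residual degrees of freedom). Oocytes were summed per group and fitted with additive age, genotype and treatment. Cell types were compared over 12 sums with the group as block (5 residual degrees of freedom). The spread in the oocyte model is departure from additivity. C57BL6 ratios carry 0.5 added counts and exact conditional Poisson 95% intervals. Lengths are those of the shortest best-ranked principal transcript in GENCODE vM21. Simulated counts were used to test the scripts.

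Named members are, per granulosa comparison, up to 5 passing with the lowest p, or 2 where none pass, and for each oocyte effect up to 3, or 1. Between cell types they are the 4 most above and below 0, and in C57BL6 the 2 most positive and 2 most negative ratios among members at 10 CPM or more. Members named beyond these were chosen after their values were seen. In C57BL6, 1 oocyte with contradictory treatment labels entered 1 alternative only. Counts of members whose libraries do not overlap, and sums by header number, were added after seeing the data. Values of 1 member are not reported here by name and are left out of the plots by gene; it stays in all counts, sums and medians.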

Additional observations from a re-analysis of the deposited data

Results flagged for a closer look

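Among 14 checks for a single C57BL6 oocyte far from the others of its group, 2 found one, and chance flags about 1 in 20. Ndufs4 was at 42.7 CPM in 1 of 6 old control oocytes, and Ndufb2 was at 30.7 CPM in 1 of 10 old resveratrol oocytes.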

How the results depend on the processing

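Counts of passing members in granulosa cells moved with several choices. Shares of all genes under these choices are not given, so the counts describe the members alone. For age under the knockout label, 23 became 12 with RLE factors, 4 with the length offset, 8 at one depth, 15 without libraries under 1000000 counts and 0 with only the groups compared. For resveratrol in wild type, 9 became 0 with RLE factors, the length offset or one depth, 4 with no filter, 19 without libraries under 1000000 counts, 19 with DESeq2 and 32 with only the groups compared. For the label among old controls, 7 became 2 with RLE factors, 0 with the length offset, 1 at one depth, 16 without libraries under 1000000 counts (15 higher, 1 lower), 13 with DESeq2 (12 higher, 1 lower) and 12 with only the groups compared. For the label among young pools, 0 became 1 with no filter. RLE factors moved the median of all genes by -0.108 and -0.116 for age in the 2 labels. The causes were not tested. Counts with the length offset are a description only, since length was known for 77.3% of the genes tested.

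Leaving out 1 library each gave 1 to 2 for age in wild type, 7 to 26 for age under the knockout label, 0 to 0 for resveratrol in wild type, 0 to 2 for the label among old controls and 0 to 1 for the difference of age effects. In oocytes, leaving out 1 sum gave 0 to 1 for middle against young and 0 to 1 for old against young age.

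In oocytes, sums by header number gave 3 members for knockout, 3 for middle against young, 4 for old against young and 9 for old against middle age (2 higher, 7 lower). DESeq2 gave 1 for knockout and 4 for old against middle age, and no filter gave 1 for the latter. At 1.5-fold the C57BL6 counts were 3 for age and 4 for resveratrol.

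For the label among old resveratrol pools, the median of the members ran from -0.09 (without knockout-labelled replicate 1) to 0.17 and Ndufc1 from -0.05 (the same) to 0.41 with 1 library left out. In oocytes the median ran from -0.11 to 0.04 (without the old wild-type control sum) for resveratrol and from -0.12 (without the young wild-type sum) to 0.45 for old against young. For age in C57BL6 it was -0.10 with TMM factors and -0.05 at one depth, and ran from -0.14 to 0.20 without 1 oocyte, below 0 in 5 such fits. Ndufs4 with resveratrol in C57BL6 ran from -0.15 to 0.02.

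Same-numbered granulosa pools deviated together with correlations of -0.12 to 0.15, so the numbers were not taken as pairs. With the replicate block, resveratrol in wild type had 0 passing members and age under the knockout label 22. The block with the length offset left 2 for age under the knockout label, 0 for resveratrol in wild type and 0 for the label among old controls. With 5 young pools under 1000000 counts, depth limits the young granulosa values.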

Other observations

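In C57BL6 mice, 2 column names can be read as the title of the oocyte with contradictory treatment labels, so which column holds it is in doubt. The column taken as this oocyte held 948 CPM over all members, with Ndufa10 at 200 CPM.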
